A study of Mus musculus with 36 samples.

Results

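The mRNAs of 10 genes of the circadian clock were followed in a mouse fibroblast-like chondrocyte line exposed to the cytokine IL-1β: *Arntl*, *Clock*, *Per1*, *Per2*, *Cry1*, *Cry2*, *Nr1d1*, *Nr1d2*, *Dbp* and *Bhlhe40*. They were picked by gene name, with earlier results of these data known, as 10 of the 53421 genes in the table of read counts. All 10 passed the filter on low counts in every comparison. Wild-type cells carried a pool of siRNA against *Ift88* (IFT88siRNA) or one without a target (NT). Their mRNA was sequenced before any cytokine (0 h, medium only) and at 5 times in 10 ng/ml of IL-1β, from 1 h over the early times of 2 h and 4 h to 8 h and, last, 24 h. Each of the 12 conditions had 3 libraries, 36 in all, with 19337022 to 38304127 counts on genes. The siRNA dose was 50 nM per the labels, although the methods of the study give a lower one, and the pools lower *Ift88* mRNA rather than delete the gene. All cells came from 1 conditionally immortalized line, and no source used here names a step that sets the cells to a common clock phase. Every exposed group differs from 0 h both in IL-1β and in the hours since the start, without an unexposed library at the later times. For clock genes, whose mRNA can cycle without any stimulus, the cytokine and the elapsed time therefore cannot be told apart. No source used here says whether replicates were separate cultures, so that p-values measure the spread between these libraries, which may be technical.

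The clock is a feedback loop of transcription. CLOCK and BMAL1 (the product of *Arntl*) bind E-boxes and switch on the *Per* and *Cry* genes, whose proteins return to the nucleus and repress them. A second loop runs through the nuclear receptors REV-ERBα and REV-ERBβ (*Nr1d1* and *Nr1d2*), which repress *Arntl*. *Dbp* is an output of the loop that encodes an activator of D-box promoters, and *Bhlhe40* encodes DEC1, a repressor that competes for E-boxes. Chondrocytes have such a clock, and inflammatory cytokines are known to disturb it in cartilage.

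The labels were first checked. *Ift88* was lower in IFT88siRNA at each of the 6 times, with log2 differences of -1.47 to -2.12, and *Nfkbia*, an inhibitor and target of NF-κB, rose by a log2 change of 4.37 ± 0.05 (SE) at 1 h in NT. Of 9 chondrocyte markers, 5 had a median over 1 TPM (transcript abundance scaled by length and library), while *Acan*, *Matn1*, *Matn3* and *Col9a1* were near 0. All 7 fibroblast markers were over 1 TPM. Among other cell types, 2 of 6 macrophage markers (*Cd68* and *Cd14*), 0 of 4 endothelial and 1 of 4 epithelial markers (*Cdh1*) passed that level, and *Adgre1* and *Ptprc*, which define macrophages and leukocytes, were at or near 0. Libraries were alike within conditions. Replicate 3 of IFT88siRNA 8 h and replicate 2 of NT 2 h stood farthest from their groups, with mean correlations of 0.993 and 0.994. The called changes of the 10 clock genes at 2 h in NT and those at 8 h in IFT88siRNA are given with and without them. For the siRNA groups at both times, the numbers of genes that passed the test are given with and without them. The log2 differences listed beside those numbers are the ones without them.

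Expression is given as CPM (counts scaled to library size with TMM) and the log2 change with its SE and the Benjamini-Hochberg adjusted p of edgeR. A gene was called where the adjusted p was under 0.05 and the change over 1.5-fold. Over the time course in NT, 7 of the 10 clock genes were called (*Per1*, *Per2*, *Cry2*, *Arntl*, *Nr1d1*, *Dbp* and *Bhlhe40*), against 50.0% of all genes tested. *Cry1*, *Clock* and *Nr1d2* passed the adjusted p alone. The median of the largest absolute log2 change was 0.73 over the 10 genes and 0.65 over all genes. By time, the called genes were 2 of 10 at 1 h (18.7% of all genes), 4 at 2 h (27.3%), 4 at 4 h (28.7%), 4 at 8 h (19.7%) and 2 at 24 h (16.3%), which makes 16 of 50 pairs of gene and time, 10 higher and 6 lower. Without replicate 2 of NT 2 h the 4 genes at 2 h were still called, with log2 changes of 0.84 for *Per1*, 0.79 for *Arntl*, -1.26 for *Dbp* and 2.63 for *Bhlhe40*. With TMM, the shares lie near those of all genes at 1 h and 24 h and above them at 2 h, 4 h and 8 h. This difference was not tested over so few genes. With scaling by total counts instead of TMM, 14 pairs were called, 7 higher and 7 lower, and over the time course 2 genes were called higher and 3 lower, against 4 and 3 with TMM. That scaling moves the median log2 change of all genes to -0.20 at 1 h, -0.29 at 2 h and -0.31 at 4 h, from -0.01, -0.01 and -0.02 with TMM, and small changes of clock genes at these times depend on it.

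**Figure D1:**
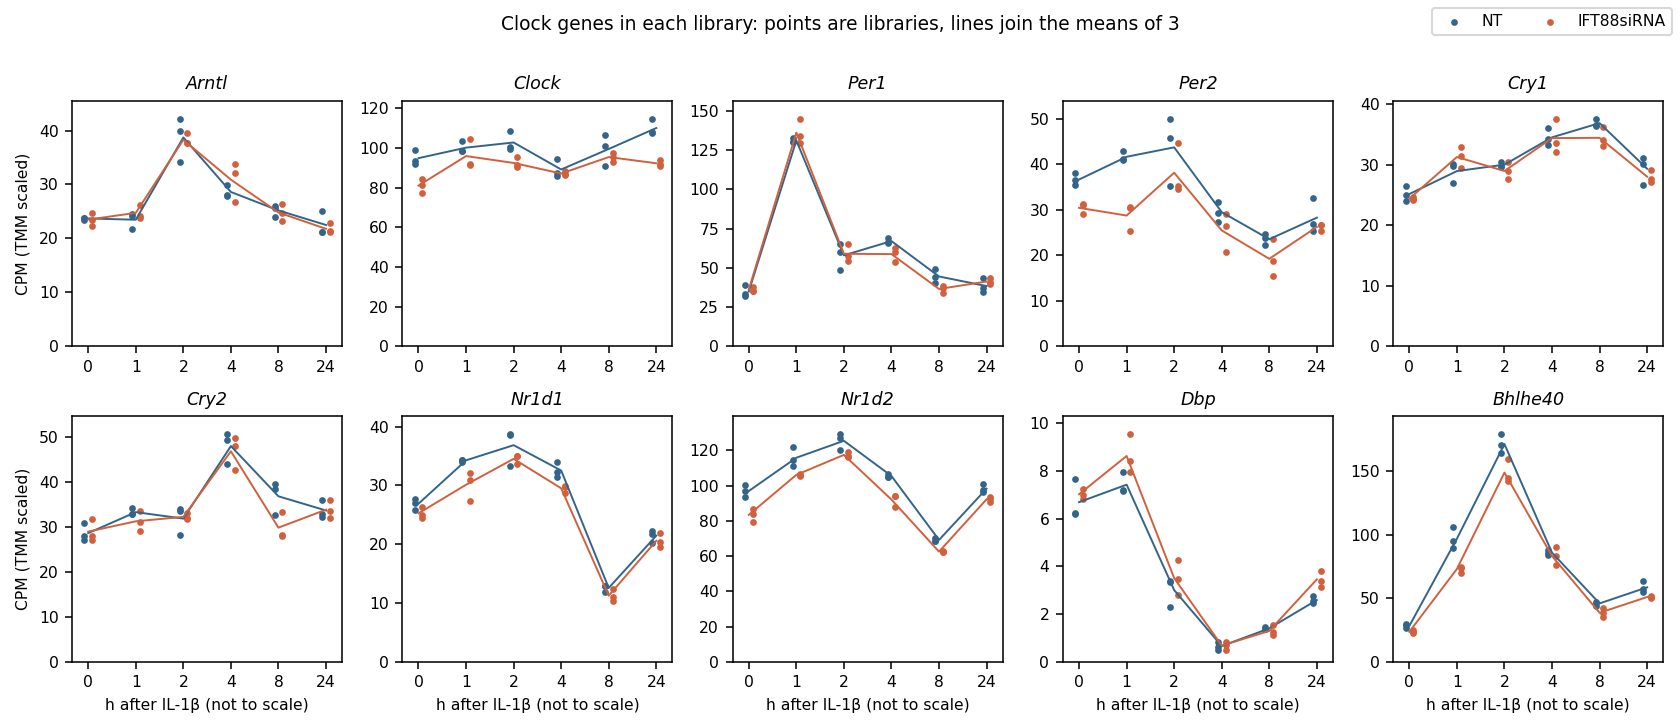
CPM (counts scaled to library size with TMM; y axes start at 0) of the 10 clock genes against hours after IL-1β (categories, not to scale); points are single libraries, lines join the means of 3, blue for NT and orange for IFT88siRNA. *Per1* peaked at 1 h, *Arntl* and *Bhlhe40* at 2 h and *Cry2* at 4 h, while *Dbp* was lowest at 4 h and *Nr1d1* at 8 h, in both groups.

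Of the activators, *Arntl* rose for a short time and *Clock* held its level. *Arntl* (mouse chromosome 7, 113207465 to 113314126, GRCm38) had 23.9, 23.8 and 23.4 CPM at 0 h in NT, 24.1, 21.7 and 24.6 at 1 h, and 39.9, 34.1 and 42.2 at 2 h. All 3 libraries at 2 h lay above every NT library of the other times. The rise was 1.63-fold (log2 0.70 ± 0.08, edgeR adjusted p = 1.57e-08) and came between 1 h and 2 h, with a step of 0.72 ± 0.08. At 4 h the mean was 28.6 CPM and at 24 h 22.5 CPM. With total count scaling, the log2 change at 2 h was 0.42, under 1.5-fold. *Clock* (chromosome 5, 76209868 to 76304792) ranged from a mean of 89.1 CPM at 4 h to 110 CPM at 24 h, a ratio of 1.23, the narrowest of the 10 genes. Its log2 change was largest at 24 h, at 0.21 ± 0.05 (edgeR adjusted p = 0.00205). At 2 h *Clock* had a log2 change of 0.11 with TMM and of -0.17 with total counts, so that its direction there depends on the scaling.

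The *Per* and *Cry* genes, which encode the repressors of the loop, each followed a course of their own. *Per1*, which also responds directly to growth factors and cAMP in many cells, rose first. Its libraries held 39.3, 33.5 and 31.9 CPM at 0 h and 130, 133 and 130 CPM at 1 h, so that the groups were far apart, with an SD of 1.57 CPM among the 3 libraries at 1 h. This was a 3.75-fold rise (log2 1.91 ± 0.09, edgeR adjusted p = 7.58e-15). By 2 h *Per1* had fallen to 59.8, 48.8 and 65.2 CPM, a step of -1.18 ± 0.09, and at 4 h it held 68.9, 65.5 and 66.7 CPM. Both times were above 0 h, by log2 0.73 ± 0.09 and 0.95 ± 0.09, although with total counts the former was 0.44 and under 1.5-fold. At 24 h *Per1* was at 38.3 ± 4.5 CPM (SD, n = 3), and its log2 change of 0.14 ± 0.09 did not pass the test.

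*Per1* (chromosome 11, 69095217 to 69109960, plus strand) is the clock gene with a canonical E-box, CACGTG, and the bases AGGTCA in the same promoter window. Its sequence is therefore shown. AGGTCA was searched as only a part of the REV-ERB/ROR element, and the bases beside it were not tested. Windows of 250 bases before to 50 bases after RefSeq starts were available for 8 of the 10 genes, 12 windows in all, and were searched on both strands. Below are the 250 bases before the start (RefSeq, GRCm38.p6, chr11:69098699-69098948, plus strand), with both sites in capitals.
Per1: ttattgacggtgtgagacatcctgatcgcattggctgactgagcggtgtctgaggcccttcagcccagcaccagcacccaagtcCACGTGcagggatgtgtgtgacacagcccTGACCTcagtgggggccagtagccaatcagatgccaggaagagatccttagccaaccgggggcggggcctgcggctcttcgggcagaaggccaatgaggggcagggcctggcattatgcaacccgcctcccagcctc
The E-box begins at -166 and AGGTCA, here on the minus strand, at -137 from the start. Of 32851 windows of that length in the genome, 7.15% hold CACGTG and 16.3% hold AGGTCA. A CRE (TGACGTCA) was in 1.79% of windows and in none of the 12, and likewise the D-boxes TTATGTAA and TTACGTAA, in 1.06%. These matches describe letters and show no binding.

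*Per2* (chromosome 1, 91415982 to 91459324) did not share the early peak of *Per1*. Its NT libraries had 38, 36.5 and 35.5 CPM at 0 h, 42.9, 41.1 and 41.1 at 1 h, and 45.9, 35.4 and 50.0 at 2 h. The 2 h libraries overlap those at 0 h, and the low one is the library that stood apart. *Per2* then fell to 22.2, 24.6 and 23.8 CPM at 8 h, below all NT libraries of other times, which was a log2 change of -0.63 ± 0.10 (35.6% lower than 0 h, edgeR adjusted p = 7.30e-06). At 24 h it was at 28.3 ± 3.9 CPM, a log2 change of -0.37 ± 0.10, short of 1.5-fold.

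The cryptochromes were highest later. *Cry1* (chromosome 10, 85131700 to 85185064) held 24.1, 25.0 and 26.5 CPM at 0 h and 36.5, 36.7 and 37.6 CPM at 8 h. The 8 h libraries were above all others in NT, with a log2 change of 0.56 ± 0.06 (1.47-fold, edgeR adjusted p = 2.29e-08), just under the 1.5-fold that a call required. *Cry2* (chromosome 2, 92403646 to 92434043) had 30.9, 28.0 and 27.0 CPM at 0 h and rose to 44.1, 50.6 and 49.3 CPM at 4 h. This was 1.69-fold (log2 0.76 ± 0.08, edgeR adjusted p = 7.41e-09), a step of 0.61 ± 0.08 from 2 h. At 8 h the mean of *Cry2* was 36.8 CPM. With total counts, *Cry2* at 4 h was 0.46 above 0 h and under 1.5-fold. *Cry1* is the other gene with an E-box in its window, and the 250 bases before its start are shown for comparison with those of *Per1* (chr10:85185055-85185304, minus strand, E-box in capitals, at -60).
Cry1: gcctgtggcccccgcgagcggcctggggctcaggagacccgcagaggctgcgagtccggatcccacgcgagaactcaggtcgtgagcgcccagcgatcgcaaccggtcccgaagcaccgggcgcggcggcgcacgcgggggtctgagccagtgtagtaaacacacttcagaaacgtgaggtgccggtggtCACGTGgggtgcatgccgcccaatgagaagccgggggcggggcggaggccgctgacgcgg

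The REV-ERB genes were lowest at 8 h. *Nr1d1* (chromosome 11, 98767932 to 98775333) had 27.7, 27.0 and 25.9 CPM at 0 h, and its means at 1 h, 2 h and 4 h were 34.3, 36.8 and 32.5 CPM. At 8 h the libraries held 12.8, 11.9 and 13.0 CPM, below every other NT library, and at 24 h 21.8, 22.3 and 20.3 CPM. The fall at 8 h was 2.13-fold (log2 -1.09 ± 0.07, edgeR adjusted p = 1.13e-12), and the step from 4 h to 8 h was -1.38 ± 0.07. From 8 h to 24 h *Nr1d1* rose by 0.77 ± 0.07. Of its exons, 8.55% overlap the antisense gene *Thra*, and reads there cannot be told apart without strand. In TPM, assigned per transcript, *Nr1d1* had 19.6 at 0 h, 20.1 at 4 h and 8.61 at 8 h, and the libraries at 0 h and 4 h overlap, which they did not in CPM. *Nr1d2* (chromosome 14, 18204054 to 18239127) had its lowest level at the same time, with 96.8, 93.4 and 101 CPM at 0 h, 105, 105 and 106 at 4 h, and 68.5, 68.4 and 70.5 at 8 h. Its fall from 4 h to 8 h was a step of -0.61 ± 0.04 (edgeR adjusted p = 2.63e-11), and against 0 h the log2 change was -0.48 ± 0.04, short of 1.5-fold. Over the 12 conditions the mean log2 CPM of *Nr1d1* and *Nr1d2* had a Pearson r of 0.93, and that of *Per2* and *Nr1d2* 0.86. These are descriptions over conditions that share the same libraries. In the early hours *Nr1d1* was 0.45 ± 0.06 and *Nr1d2* 0.37 ± 0.04 above 0 h (2 h). At 4 h their sign depends on the scaling, since with total counts *Nr1d1* was at -0.01 and *Nr1d2* at -0.16. The window of *Nr1d2* holds AGGTCA at -77 (chr14:18239107-18239356, minus strand, capitals), while that of *Nr1d1* holds none of the motifs searched.
Nr1d2: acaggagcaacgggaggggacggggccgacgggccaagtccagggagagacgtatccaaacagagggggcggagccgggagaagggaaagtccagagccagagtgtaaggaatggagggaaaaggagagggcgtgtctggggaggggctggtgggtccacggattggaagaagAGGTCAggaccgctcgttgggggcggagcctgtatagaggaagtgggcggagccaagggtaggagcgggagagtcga
The windows of *Dbp* and *Cry2* hold none of these motifs either. In *Arntl* AGGTCA is at 31 after a start, and in *Clock* AGGTCA and an NF-κB consensus (4.51% of all windows) are in separate windows.

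*Dbp* (chromosome 7, 45705088 to 45710203) had the largest fall of the 10 genes. NT libraries held 7.65, 6.23 and 6.21 CPM at 0 h and 7.16, 7.94 and 7.19 CPM at 1 h, which overlap. At 2 h they were at 3.34, 3.37 and 2.31 CPM and at 4 h at 0.623, 0.505 and 0.850 CPM, and neither group reached any library of the hours before. The changes from 0 h were -1.16 ± 0.14 at 2 h, -3.34 ± 0.19 at 4 h (10.1-fold lower, edgeR adjusted p = 1.17e-13) and -2.25 ± 0.16 at 8 h. *Dbp* rose again from 4 h to 8 h (step 1.09 ± 0.25) and to 24 h (step 0.88 ± 0.18), when its libraries held 2.54, 2.45 and 2.78 CPM, still 61.2% below 0 h. At 4 h these levels stand on 11, 11 and 16 counts, against 181, 151 and 140 at 0 h, so that the fold at 4 h carries more counting error than those of the other genes, none of which had fewer than 244 counts in a library. Of the exons of *Dbp*, 18% overlap the antisense gene *Sphk2*, and counting without strand cannot divide these reads. In TPM, assigned per transcript, *Dbp* had 11.2 ± 1.1 at 0 h and 1 ± 0.17 at 4 h.

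*Bhlhe40* (chromosome 6, 108660629 to 108666925) was the only clock gene of the 10 called at all 5 times, and rose most. It had 26.5, 29.5 and 28.7 CPM at 0 h, 95.2, 89.6 and 106 CPM at 1 h, and 171, 164 and 179 CPM at 2 h. The 2 h libraries were above all others and those at 0 h below all others in NT. The change was 3.42-fold at 1 h and 6.05-fold at 2 h (log2 2.6 ± 0.06, edgeR adjusted p = 7.99e-21). It then came down in steps of -0.98 ± 0.06 to 4 h and -0.91 ± 0.06 to 8 h. At 24 h *Bhlhe40* was at 57.0, 63.5 and 55.3 CPM, 2.08-fold above 0 h.

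**Figure D2:**
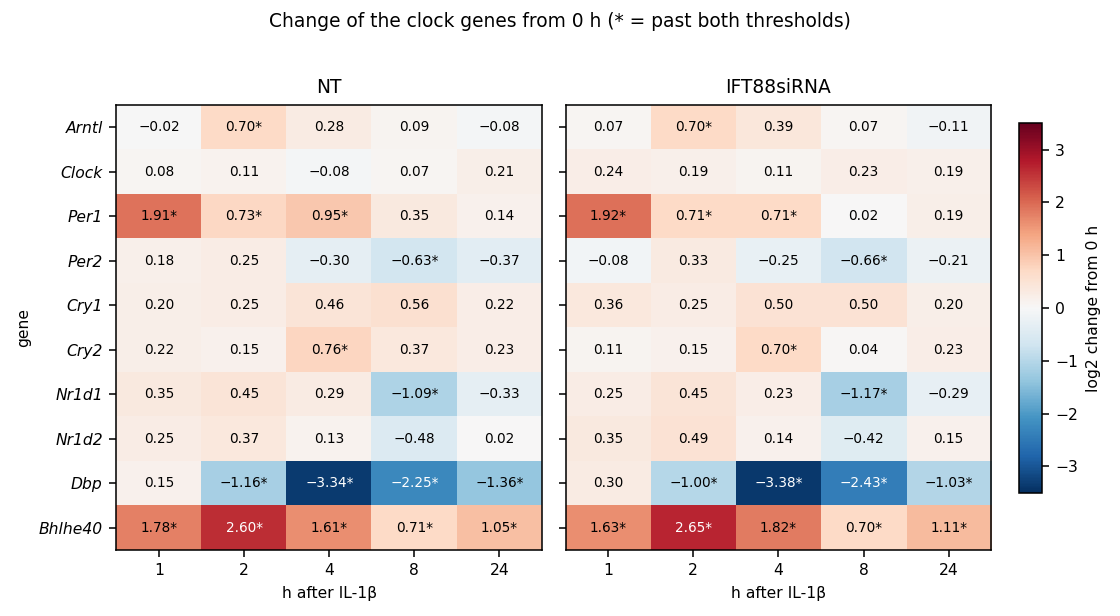
Log2 change from 0 h (colour and printed value) of the 10 clock genes (rows) by hours after IL-1β (columns) in NT (left) and IFT88siRNA (right); an asterisk marks an edgeR adjusted p under 0.05 with a change over 1.5-fold. *Bhlhe40* was called higher at all 5 times and *Dbp* lower from 2 h to 24 h in both groups.

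The steps between neighbouring times place these changes in order. Between 1 h and 2 h, 4 of the 10 genes were called (*Per1* and *Dbp* lower, *Arntl* and *Bhlhe40* higher, 11.9% of all genes), and between 2 h and 4 h 3 (*Cry2* higher, *Dbp* and *Bhlhe40* lower, 27.1%). From 4 h to 8 h there were 5 (*Per1*, *Nr1d1*, *Nr1d2* and *Bhlhe40* lower, *Dbp* higher, 16.9%), and from 8 h to 24 h 2 (*Nr1d1* and *Dbp* higher, 13.4%). After the last time, 8 of the 10 genes were within 1.5-fold of 0 h, all but *Dbp* and *Bhlhe40*.

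At 0 h the genes differed in level per transcript length. *Nr1d2* was highest at 50.2 ± 1.5 TPM (SD, n = 3), followed by *Clock* at 23.4 ± 1.6, *Nr1d1* at 19.6 ± 0.063, *Bhlhe40* at 18.4 ± 0.86 and *Cry1* at 18 ± 0.83. Next came *Arntl* at 16.1 ± 0.88, *Per1* at 15.8 ± 3.0, *Cry2* at 14.0 ± 0.95, *Per2* at 11.2 ± 0.40 and *Dbp* at 11.2 ± 1.1 TPM. Between neighbours in this order, the libraries of *Bhlhe40* and *Cry1* overlap, as do those of *Arntl* and *Per1*, *Per1* and *Cry2*, and *Per2* and *Dbp*.

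The genes most alike in course were looked for among 10756 genes with a mean of at least 5 CPM, by Pearson r of mean log2 CPM over the 12 conditions, as a description. For *Dbp* these were *Tef* (0.99), which encodes another activator of D-boxes, and *Evc* (0.98). *Per1* was closest to the immediate early gene *Jun* (0.98) and *Ccnl1* (0.98), *Bhlhe40* to *Mapk6* and *Tfe3* (0.98 and 0.97), and *Arntl* to *Smurf1* (0.98) and *Hivep3* (0.97). *Per2* was closest to *Dmwd* (0.97) and *Fuz* (0.96), and *Nr1d2* to *Plk4* (0.96) and *Pan3* (0.96). For *Cry1* they were *Nars* and *3110002H16Rik* (both 0.95), for *Cry2* *Xpo6* and *Sik3* (both 0.95), and for *Clock*, whose level moved least, *Ivns1abp* (0.84) and *Atf5* (0.81).

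The rest of the clock was counted in 3 lists. Among 12 other transcriptional clock genes, 9 were called over time in NT (50.0% of all genes), 5 with the largest change upward and 4 downward. *Nfil3*, a repressor of the D-boxes that DBP activates, rose from 18.7 ± 1.1 CPM at 0 h to 71.4 ± 1.3 at 1 h and 108 ± 6.6 at 2 h (SD, n = 3), or log2 2.52 ± 0.05. It was called at all 5 times, as *Bhlhe40* was. *Tef*, which encodes a relative of DBP, fell from 170 ± 2.7 CPM to 65.0 ± 2.5 at 4 h (log2 -1.38 ± 0.05), and *Per3* from 50.6 ± 1.4 to 22.4 ± 0.94 (log2 -1.17 ± 0.08). *Hlf*, the remaining member of that activator family, was not called at 4 h in NT. At 8 h *Hlf* was higher, at 4.16 ± 0.24 CPM from 0.95 ± 0.064 at 0 h (log2 2.13 ± 0.18). *Arntl2*, the paralog of *Arntl*, fell at 2 h to 3.38 ± 0.23 CPM from 8.15 ± 0.33 (log2 -1.27 ± 0.15), when *Arntl* was highest. By 4 h *Arntl2* was called higher than at 0 h. *Rorb* was called lower than 0 h at 2 h and rose above 0 h at 4 h by 1.36 ± 0.22, at a mean of 1.92 CPM. Their median largest absolute log2 change was 1.06, against 0.65 over all genes.

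Of 12 modifiers of clock proteins, 5 were called over time in NT (50.0% of all genes), 3 higher and 2 lower, and their median largest absolute log2 change was 0.44, against 0.65 over all genes. *Csnk1e*, a kinase of PER proteins, rose to 134 ± 9.0 CPM at 2 h from 67.6 ± 2.6 (log2 0.98 ± 0.05), *Timeless* by 0.73 ± 0.05 and *Fbxw11* by 0.59 ± 0.05, both at 4 h. *Usp2*, which encodes a deubiquitinase, fell from 20.3 ± 0.38 to 8.29 ± 0.74 CPM at 4 h (log2 -1.29 ± 0.08), and *Gsk3b* fell at the same time (log2 -0.60 ± 0.06). Of 4 output genes, 3 were called (50.0% of all genes). *Nampt*, the rate-limiting enzyme of NAD salvage, rose at 4 h to 297 ± 15 CPM from 107 ± 6.1 (log2 1.47 ± 0.05), and the cell cycle genes *Wee1* and *Cdkn1a* fell at 8 h, with log2 changes of -0.59 ± 0.06 and -0.77 ± 0.05.

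**Figure D3:**
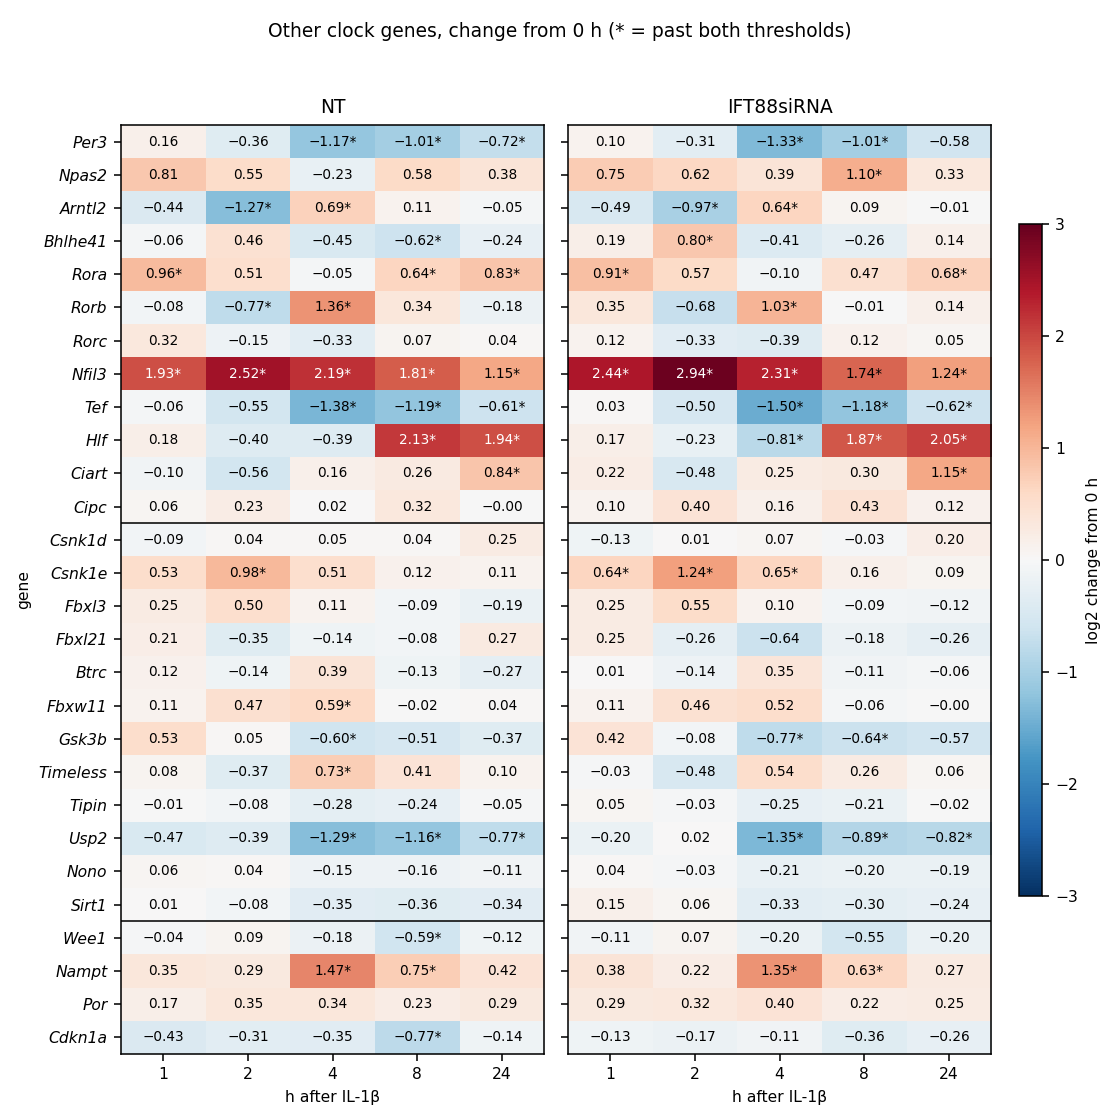
Log2 change from 0 h (colour and printed value) of 28 other clock genes (rows) in NT (left) and IFT88siRNA (right) by hours after IL-1β; lines divide transcriptional genes, modifiers of clock proteins and output genes, and an asterisk marks an edgeR adjusted p under 0.05 with a change over 1.5-fold. *Nfil3* was called higher at all 5 times and *Tef*, *Per3* and *Usp2* lower at 4 h in both groups.

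With the siRNA against *Ift88*, the clock genes followed nearly the same course. *Ift88* encodes a protein of the intraflagellar transport that builds the primary cilium, and the comparison asks whether its loss alters the level of the clock genes or their response. In IFT88siRNA 7 of the 10 were called over time (48.2% of all genes), the same 7 as in NT. By time they were 2 at 1 h (15.1% of all genes), 4 at 2 h (25.6%), 4 at 4 h (29.3%), 4 at 8 h (17.6%) and 2 at 24 h (14.2%). *Per1* held 35.4, 37.6 and 35.1 CPM at 0 h and 130, 145 and 134 CPM at 1 h, a log2 change of 1.92 ± 0.07. *Dbp* was at 7.26, 7 and 6.81 CPM at 0 h and 0.695, 0.841 and 0.505 CPM at 4 h, a change of -3.38 ± 0.19. *Bhlhe40* rose from 24.6, 23.0 and 23.2 CPM to 142, 145 and 159 CPM at 2 h, by 2.65 ± 0.07, and *Nr1d1* fell at 8 h (log2 -1.17 ± 0.07). Without replicate 3 of IFT88siRNA 8 h, left out of this course after the data were seen, the 4 genes called at 8 h were still called. *Per2* was then at -0.85 ± 0.12 in place of -0.66 ± 0.12, *Nr1d1* at -1.24 ± 0.08, *Dbp* at -2.32 ± 0.18 in place of -2.43 ± 0.16 and *Bhlhe40* at 0.76 ± 0.07 in place of 0.70 ± 0.07.

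The change from 0 h was then compared between the siRNA groups in a joint test of the 5 times. None of the 10 clock genes passed the adjusted p (edgeR adjusted p from 0.129 for *Bhlhe40* to 0.886 for *Nr1d1*), against 5.53% of all genes, and none was called with the fold, against 1.20%. At an unadjusted p under 0.05 there were 3 (*Per1*, *Clock* and *Bhlhe40*), and 4 with DESeq2. No share of all genes is given at that threshold, so that these counts cannot be set against it. Without the filter on low counts, *Per1* passed the adjusted p. The largest single difference was for *Dbp* at 24 h, 0.34 ± 0.19 on the log2 scale, and for *Per1* at 8 h, -0.33 ± 0.13. These values do not show that the responses were equal. Of the other clock genes, 1 of 12 transcriptional genes, 1 of 12 modifiers and 1 of 4 output genes passed the adjusted p: the rise of *Nfil3* at 1 h was larger in IFT88siRNA by log2 0.51 ± 0.08 (joint edgeR adjusted p = 1.70e-06), and *Usp2* and *Cdkn1a* differed by 0.41 ± 0.11 at 2 h and 0.42 ± 0.08 at 8 h.

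In level, the groups differed little, and the differences that passed the adjusted p were downward in IFT88siRNA. The log2 difference was below 0 for 7, 6, 7, 8, 10 and 7 of the 10 genes at 0, 1, 2, 4, 8 and 24 h. Their median difference ran from -0.05 at 4 h to -0.17 at 8 h. That of all genes ran from -0.003 at 8 h to 0.004 at 2 h. The signs are not independent, since the 10 genes were measured in the same libraries at each time. Over the 6 times together, none of the 10 genes was called with the fold (5.19% of all genes), but 5 passed the adjusted p (31.8% of all genes), all with their largest difference downward in IFT88siRNA: *Bhlhe40* (edgeR adjusted p = 5.77e-07), *Nr1d2*, *Clock*, *Per2* and *Nr1d1*. At the single times, no clock gene was called with the fold, where all genes gave 2.23% at 0 h, 2.66% at 1 h, 0.496% at 2 h, 0.432% at 4 h, 0.692% at 8 h and 1.15% at 24 h. By the adjusted p alone there were 12 of 60 pairs of gene and time, all lower in IFT88siRNA: 4 at 0 h (19.5% of all genes), 4 at 1 h (19.0%), 0 at 2 h (2.76%), 1 at 4 h (3.85%), 1 at 8 h (4.25%) and 2 at 24 h (8.66%). These shares, and the 31.8% over the 6 times, count all genes that passed in either direction. The share of genes that passed and were lower is not given. At 2 h, 2 genes had an unadjusted p under 0.05, again without a share of all genes to set beside them.

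**Figure D4:**
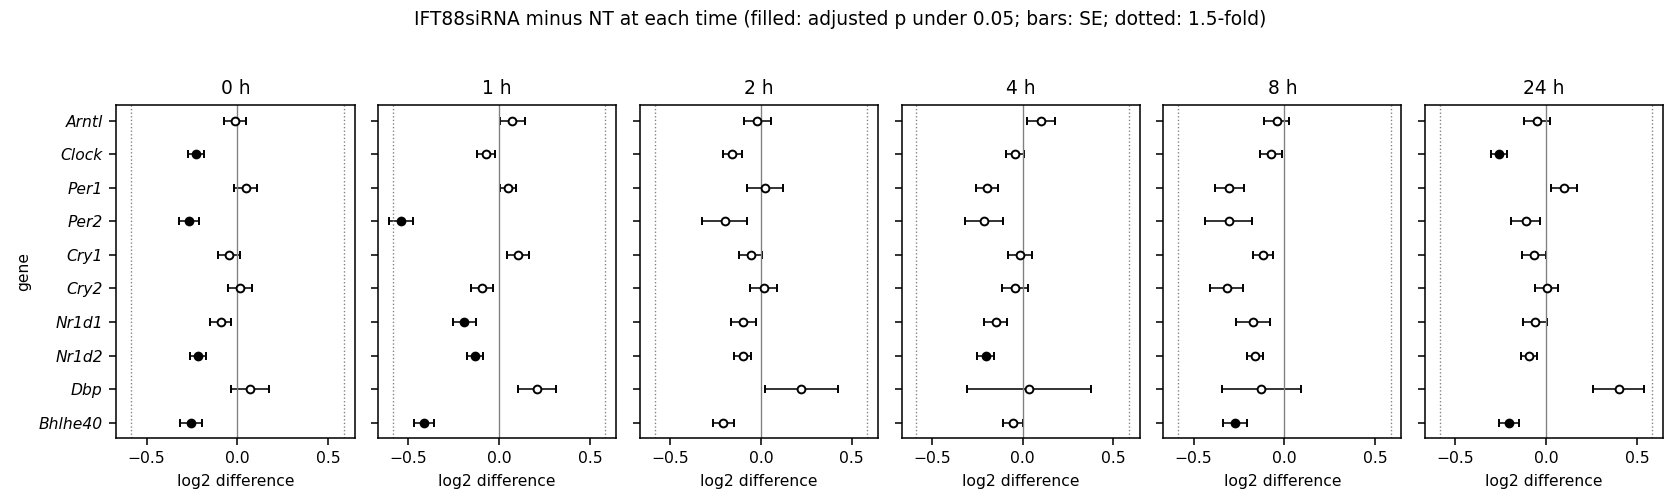
Log2 difference between IFT88siRNA and NT (x axis, IFT88siRNA minus NT, bars are SE, 3 libraries a group) for the 10 clock genes (y axis) at 0, 1, 2, 4, 8 and 24 h; filled points have an edgeR adjusted p under 0.05 and dotted lines mark a 1.5-fold difference. The 12 filled points all lie below 0 and none reaches the dotted lines, with *Per2* at 1 h the farthest at -0.54.

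*Per2* and *Bhlhe40* gave the largest of these differences. *Per2* held 31, 31.3 and 29.1 CPM in IFT88siRNA at 0 h against 38, 36.5 and 35.5 in NT, and 25.3, 30.5 and 30.4 at 1 h against 42.9, 41.1 and 41.1, without overlap at either time. It was 17.0% lower at 0 h (log2 -0.27 ± 0.06, edgeR adjusted p = 0.00126) and 31.2% lower at 1 h (-0.54 ± 0.07, edgeR adjusted p = 6.40e-05). Without replicate 2 of IFT88siRNA 1 h the latter was -0.59 and past 1.5-fold. *Bhlhe40* held 73.9, 70.3 and 74.9 CPM at 1 h in IFT88siRNA against 95.2, 89.6 and 106 in NT. It was 25.0% lower at that time (log2 -0.41 ± 0.05, edgeR adjusted p = 9.46e-05) and 16.4% lower at 0 h (-0.26 ± 0.06, edgeR adjusted p = 0.00440), so that the groups differed before IL-1β was added.

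*Clock* and the REV-ERB genes differed by less. *Clock* had 81.3, 77.1 and 84.5 CPM in IFT88siRNA at 0 h against 93.6, 98.9 and 91.9 in NT (log2 -0.23 ± 0.05), and 93.9, 90.7 and 92.0 against 115, 107 and 108 at 24 h (-0.26 ± 0.05). *Nr1d2* lay below NT without overlap of the libraries at all 6 times, with log2 differences of -0.10 to -0.22, and passed the adjusted p at 0 h, 1 h and 4 h. *Nr1d1* passed it at 1 h, at -0.19 ± 0.06. *Arntl* differed by at most 0.10 ± 0.08 at any time (4 h), *Cry1* by -0.12 ± 0.06 (8 h), and *Dbp* was 0.40 ± 0.14 higher at 24 h, without overlap and short of the adjusted p (edgeR adjusted p = 0.0966). In bulk RNA, a lower level from fewer cells that express a gene and from less mRNA per cell cannot be told apart.

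Over all pairs, every IFT88siRNA library lay below every NT library for 4 of 10 genes at 0 h (17.4% of all genes), 4 at 1 h (17.2%), 3 at 2 h (11.0%), 3 at 4 h (10.4%), 4 at 8 h (10.8%) and 3 at 24 h (13.6%), 21 of 60 in all. Every one lay above for 1 pair, *Dbp* at 24 h (12.9% of all genes). The counts by the adjusted p alone depended on single libraries. Without replicate 2 of NT 2 h, *Per2* (log2 -0.34 ± 0.09) and *Bhlhe40* (-0.24 ± 0.05) passed the adjusted p at 2 h. All genes there went from 2.76% to 9.16%. Without replicate 3 of IFT88siRNA 2 h, *Bhlhe40* passed the adjusted p, as did 3.32% of all genes. Without replicate 3 of IFT88siRNA 8 h, 5 clock genes passed it at 8 h in place of 1, all lower: *Per1* (-0.35 ± 0.08), *Per2* (-0.50 ± 0.09), *Cry2* (-0.42 ± 0.08), *Nr1d2* (-0.17 ± 0.05) and *Bhlhe40* (-0.22 ± 0.06), while all genes went from 4.25% to 18%. Conversely, *Nr1d2* at 4 h and *Bhlhe40* at 8 h did not pass when any single NT library of that time was left out, nor without replicate 1 of IFT88siRNA 4 h and replicate 2 of IFT88siRNA 8 h. *Bhlhe40* at 24 h did not pass without replicate 2 of NT or any IFT88siRNA library of that time. At 1 h, *Nr1d1* did not pass without any single NT library or replicate 1 of IFT88siRNA, and *Nr1d2* not without replicate 1 or 3 of either group, while *Per2* and *Bhlhe40* passed in all 6 cases. Of all genes, 10.6% to 20.2% passed in these fits at 1 h. At 0 h the same 4 genes passed whichever library was left out, in fits where 12.7% to 20.4% of all genes passed. The share of all genes that passed in every such fit is not given, so that this stability cannot be set against it. With limma on TPM, 3 of the 60 pairs passed the adjusted p, and 0 without a filter on low TPM. The shares of all genes in these limma fits are not given.

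*Ciart*, which encodes a repressor of CLOCK and BMAL1, was the only other clock gene called between the groups. It was 1 of 12 other transcriptional genes, called at 0 h (2.23% of all genes) and over the 6 times together (5.19%). At 0 h it had 4.4, 3.94 and 3.78 CPM in IFT88siRNA against 6, 5.9 and 6.56 in NT, a log2 difference of -0.61 ± 0.11 (edgeR adjusted p = 0.000501). It stayed below NT at 24 h, with 8.83, 8.81 and 9.28 CPM against 10.6, 11.3 and 11.1.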

How the data were processed

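The authors deposited read counts per gene, made with HISAT2 (version 2.1.0) on GRCm38 and featureCounts (Subread 1.6.3) with default settings, and TPM per gene, made with Salmon (version 0.9.1), per the study's methods and the submitters' processing notes. Groups were taken from the labels, and 0 columns were left unmapped. Libraries held 19337022 to 26873538 counts in NT and 21879056 to 38304127 in IFT88siRNA. Reads carried no molecular identifiers, so that depth speaks for counting error only.

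Counts were fitted with edgeR (version 4.0.16; quasi-likelihood test, TMM, filterByExpr) in R 4.3.3, separately for the NT course, the IFT88siRNA course and each comparison of both groups at 1 time, and over all 36 libraries for the joint tests. P-values were Benjamini-Hochberg adjusted over all genes tested. A call required an adjusted p under 0.05 and a change over 1.5-fold. Each SE was obtained from the log2 change and the F statistic of its contrast, as their ratio with F under a root. For a test over all times, the log2 change is the largest of its contrasts. The comparisons with 0 h share the same 0 h libraries. An exact test of 3 against 3 libraries cannot go below p = 0.1. Alternatives were DESeq2 (version 1.42.0), limma (version 3.58.1) on log2(TPM + 1) or log2(TPM + 0.1), other scalings, no filter, a replicate block and leaving out single libraries. Scaling by total counts and the IFT88siRNA course without its 8 h replicate 3 were added after the data were seen. Scripts were tested on simulated counts. From each list of other clock genes, up to 3 of the largest rises and 3 of the largest falls called over time in NT were named, and any gene called between siRNA groups. The 2 genes most like each clock gene were taken by Pearson r (prior count 2). Those of *Nr1d1* are not reported here. Figures were drawn with matplotlib 3.10.9.

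The 10 genes, the lists and the tests were chosen with earlier results of these data known. Same-numbered libraries deviated together (r over 0.1) in 8 of 18 pairs. With 3 libraries a condition, this check cannot settle whether the replicate numbers pair the samples. The main fits left them unpaired.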

Additional observations from a re-analysis of the deposited data

Results flagged for a closer look

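None of the 10 clock genes was singled out, but 3 other clock genes changed from 0 h by different amounts in the siRNA groups, in the joint edgeR test of the 5 times. They were 1 of 12 transcriptional genes, 1 of 12 modifiers and 1 of 4 output genes, against 5.53% of all genes. The largest difference in log2 change, IFT88siRNA minus NT, was 0.51 for *Nfil3* at 1 h, 0.41 for *Usp2* at 2 h and 0.42 for *Cdkn1a* at 8 h. None of these reached 1.5-fold.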

How the results depend on the processing

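By the adjusted p alone, without the 1.5-fold, 38 of 50 pairs of clock gene and time were called against 0 h in NT in place of 16 (54.2% of such pairs over all genes), 30 of 40 steps between neighbouring times in place of 14 (48.9% over all genes), 12 of 60 pairs between the siRNA groups in place of 0, and 5 of 10 genes over the 6 times in place of 0. Leaving out 1 library gave 16 to 17 pairs against 0 h, 11 to 14 steps and 7 to 8 genes over time in NT. Between the siRNA groups it gave 0 to 1 pairs, the 1 being *Per2* at 1 h, and leaving out 1 replicate number gave 0 to 1 genes over the 6 times together. With a replicate block the counts were 7 genes over time in NT, 16 pairs, 14 steps and 0 between the siRNA groups. With that block, 15 of 60 pairs passed the adjusted p alone, without a share of all genes to set beside them. The same-numbered libraries correlated best with their own number in 7 of 18 pairs. Over time, only the 32 called changes from 0 h were followed under the alternatives. Of their 656 values, 33 lost their call and 0 reversed. Smaller changes did reverse in NT. With total counts, *Nr1d2* at 4 h went from log2 0.13 to -0.16, *Cry1* at 2 h from 0.25 to -0.03 and *Arntl* at 4 h from 0.28 to -0.02. Between the siRNA groups, only the 12 differences that passed the adjusted p were followed. Of their 192 values, 55 no longer passed and 0 reversed. The losses over time include *Per1* and *Arntl* at 2 h and *Cry2* at 4 h with scaling by total counts or with TPM. The cause was not tested. The depth of *Dbp* at 4 h, 11 to 16 counts a library in NT, limits its fold there.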
